A study of Mus musculus with 8 samples.

Results

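A set of 10 genes of blood vessel sprouting and stabilisation are described here in cerebral tissue labelled brain cortex, taken from mouse embryos on embryonic day 16. They are Esm1, Kcne3, Apln, Aplnr, Angpt2, Angpt1, Tek, Tie1, Dll4 and Pdgfb, chosen by symbol, and all 10 were found among the 19938 genes measured on 8 whole-transcript arrays. Each of the 10 was read by 1 probe set. The VEGF-labelled group held 4 arrays of bitransgenic embryos, carrying GFAP-tTA, a tetracycline transactivator under a promoter of astrocytes and radial glia, together with the responder TetO-VEGF-A164. The control group held 4 arrays of wild-type embryos that lacked the responder, and the labels do not say whether they carried the transactivator. Both groups came from a mixed strain background, and nothing in the labels gives litters, or whether embryos were pooled. A p-value therefore measures the spread between these arrays, which may be technical in part. The comparison asks which genes differ when VEGF-A, the main growth factor for vessels, is overexpressed.

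A sprouting vessel is led by tip cells, which sense VEGF-A, extend filopodia and express a set of secreted and membrane proteins, while stalk cells behind them divide. Notch signalling from the tip to the stalk limits the number of tips. Angiopoietins act through the endothelial Tie receptors, where Angpt1 from perivascular cells steadies vessels and Angpt2 from endothelial cells loosens them in most settings. Apelin and its receptor promote sprouting and vessel widening, and endothelial PDGF-B recruits pericytes.

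The deposited values are on a log scale read as log2, and the median of the 8 arrays has been subtracted from each probe set. A value thus says how far an array lies from that median, no level is kept, and levels of different genes cannot be compared. For the same reason the labelled tissue could not be checked against the level of its markers. Array medians over all probe sets lay between -0.0091 and 0.0055 in the VEGF-labelled arrays and between -0.0035 and 0.015 in the control arrays. The spread was unequal, with an interquartile range from 0.065 in VEGF 4 to 0.14 in VEGF 2. In the control arrays it ran from 0.061 in control 4 to 0.10 in control 2. Vegfa itself averaged 0.014 ± 0.064 in the VEGF-labelled arrays and -0.039 ± 0.081 in the control arrays (SD, n = 4 each), with an adjusted p of 0.748 in limma, and so does not check the labels. No source used here says whether its probe set reads the transgene.

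None of the 10 genes passed the test over all genes, limma's moderated fit with Benjamini-Hochberg adjustment and a threshold of 0.05, and nor did any other gene (0% of 19938, against 12.5% at an unadjusted p under 0.05). Most of the 10 genes followed 1 of 2 patterns over the arrays, which were named after the values were seen. Esm1, Kcne3, Apln and Angpt2 were highest in VEGF 1, VEGF 2 and VEGF 3, while VEGF 4 lay among or below the control arrays. Tek, Tie1, Aplnr and Pdgfb were lowest in VEGF 3 and control 3, as were most endothelial marker genes. Dll4 and Angpt1 fitted neither description. In none of the 10 genes were the groups free of overlap, where 6.84% of all genes had groups that did not overlap. The median difference of the 10 genes was 0.014, 5 being higher and 5 lower, against a median of -0.0103 over all genes, of which 43.3% were higher.

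**Figure D1:**
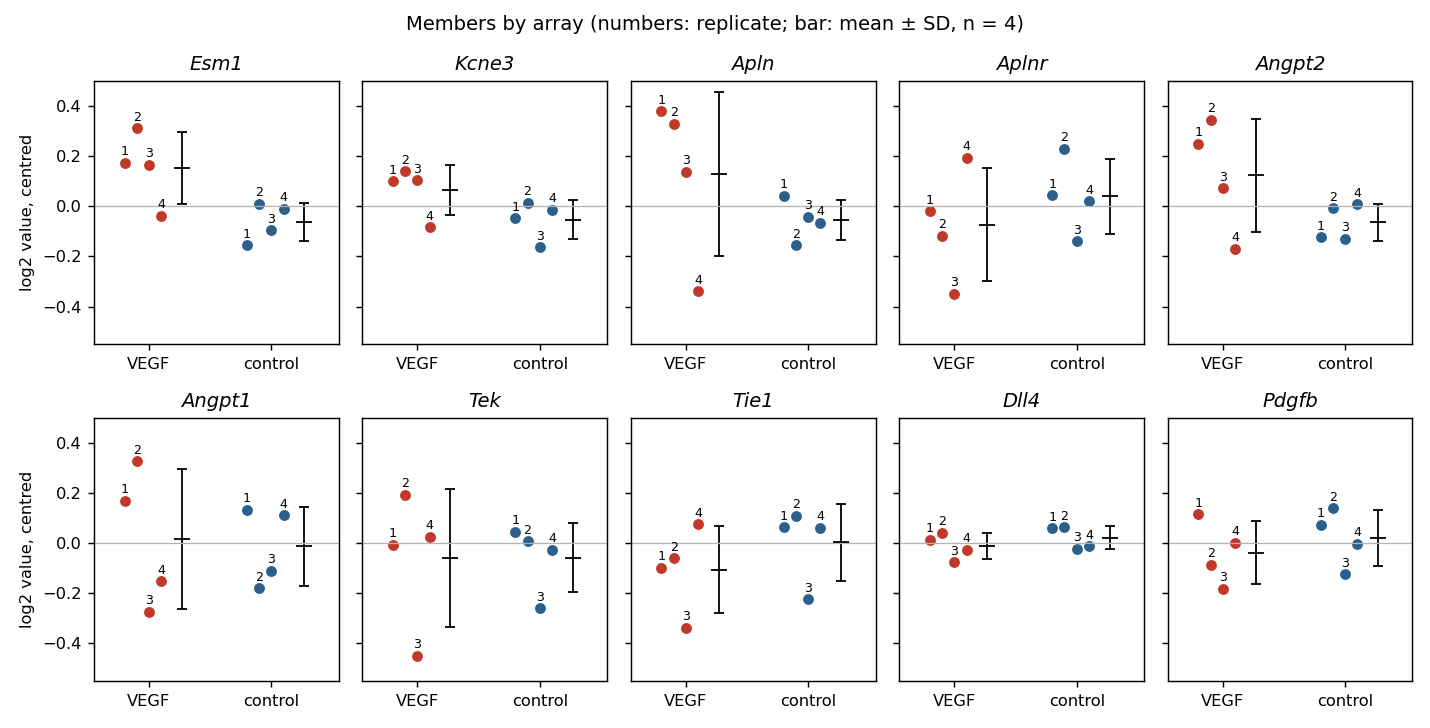
Centred log2 value of each of the 10 genes (y axis) in the 4 VEGF-labelled arrays (red, left) and the 4 control arrays (blue, right), with the replicate number above each point and the mean ± SD beside it. In Esm1, Kcne3, Apln and Angpt2 the points 1 to 3 of the VEGF-labelled group lie above all control points and point 4 does not; in Tek, Tie1, Aplnr and Pdgfb the points numbered 3 are the lowest of both groups.

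Esm1, which encodes the secreted proteoglycan endocan of tip cells, differed most relative to its spread. Its values were 0.17, 0.31, 0.17 and -0.037 in VEGF 1 to VEGF 4, against -0.16, 0.0097, -0.096 and -0.0097 in control 1 to control 4. The first 3 VEGF-labelled arrays lay above all control arrays, and VEGF 4 lay between control values. The mean was 0.15 ± 0.14 in the VEGF-labelled arrays and -0.063 ± 0.077 in the control arrays (SD, n = 4 each), which differ by 0.22 (SE 0.072), 1.16-fold if the base is 2. The 95% confidence interval of that difference ran between 0.054 and 0.38, and limma gave an adjusted p of 0.293. It was the only one of the 10 genes with an unadjusted p under 0.05 in either direction, which 12.5% of all genes had. Of all genes, 4.62% were higher at that threshold. Kcne3, a potassium channel beta subunit enriched in tip cells of the mouse retina, was at 0.10, 0.14, 0.10 and -0.084 in the VEGF-labelled arrays, against -0.048, 0.014, -0.16 and -0.014 in the control arrays. Again VEGF 1, VEGF 2 and VEGF 3 were above all control arrays, and only control 3 was below VEGF 4. The difference in Kcne3 was 0.12 with an SE of 0.059, and the adjusted p in limma was 0.46.

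Apln encodes apelin, a peptide hormone of sprouting endothelium, and Aplnr the G protein-coupled receptor that binds it. Apln was at 0.38, 0.33, 0.14 and -0.34 in VEGF 1 to VEGF 4, against 0.042, -0.15, -0.042 and -0.065 in control 1 to control 4. VEGF 4 was the lowest of the 8 arrays and VEGF 1 the highest. The mean was 0.13 ± 0.33 in the VEGF-labelled arrays and -0.055 ± 0.081 in the control arrays (SD, n = 4 each), and the difference of 0.18 had a 95% confidence interval between -0.13 and 0.50 (limma, adjusted p = 0.667). Apln lies on the X chromosome, and Xist gave a female pattern in VEGF 2, VEGF 3 and control 3. With this pattern as a covariate the difference was 0.15 for Apln, -0.042 for Aplnr, -0.049 for Tie1, -0.011 for Pdgfb and -0.027 for Dll4. In that fit it was 0.20 for Esm1, 0.17 for Angpt2, 0.12 for Kcne3, 0.041 for Angpt1 and 0.048 for Tek. VEGF 3 and control 3, the lowest arrays of Tek, Tie1, Aplnr and Pdgfb, thus both had the female pattern. VEGF 2 had it too and was the highest of the 8 arrays for Tek, at 0.19. For Tie1, Aplnr and Pdgfb, VEGF 2 was at -0.061, -0.12 and -0.086, above VEGF 3 and control 3. A part of sex in these values was not tested. Aplnr went the other way from Apln in most arrays, at -0.020, -0.12, -0.35 and 0.19 in the VEGF-labelled arrays, against 0.045, 0.23, -0.14 and 0.020 in the control arrays. Here VEGF 4, lowest in Apln, was second only to control 2. The difference in Aplnr was -0.11 with an SE of 0.11 (limma, adjusted p = 0.768). Within an array, Apln minus Aplnr was 0.40, 0.45, 0.49 and -0.53 in VEGF 1 to VEGF 4, against -0.0027, -0.39, 0.096 and -0.086 in control 1 to control 4. The 2 ends of that range were thus both VEGF-labelled.

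Both angiopoietins overlapped between the groups, in different orders over the arrays. Angpt2, the endothelial antagonist or partial agonist of Tek, was at 0.25, 0.34, 0.072 and -0.17 in the VEGF-labelled arrays, against -0.12, -0.0078, -0.13 and 0.0078 in the control arrays. VEGF 4 was again the lowest of all 8 arrays and the other 3 VEGF-labelled arrays were the highest. The mean was 0.12 ± 0.23 in the VEGF-labelled arrays and -0.063 ± 0.073 in the control arrays (SD, n = 4 each), and the difference of 0.19 had an SE of 0.10 (limma, adjusted p = 0.498). Angpt1, the Tek agonist made by perivascular cells, was at 0.17, 0.33, -0.28 and -0.15 in the VEGF-labelled arrays, against 0.13, -0.18, -0.11 and 0.11 in the control arrays. Both groups held high and low arrays, and the VEGF-labelled arrays spanned the whole range. The difference in Angpt1 was 0.029 with a 95% confidence interval between -0.27 and 0.33 (limma, adjusted p = 0.961). Angpt2 minus Angpt1 was 0.080, 0.018, 0.35 and -0.015 in VEGF 1 to VEGF 4, against -0.26, 0.17, -0.017 and -0.10 in control 1 to control 4, so that the groups overlapped in this ratio too.

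Tek, the receptor of both angiopoietins, and Tie1, its co-receptor with no established ligand of high affinity, shared their 2 lowest arrays with the endothelial list. Tek was at -0.0065, 0.19, -0.45 and 0.026 in the VEGF-labelled arrays, against 0.045, 0.0065, -0.26 and -0.026 in the control arrays. VEGF 3 and control 3 stood lowest, and the group means coincided, with a difference of -0.00091 and a 95% confidence interval between -0.29 and 0.29 (limma, adjusted p = 0.998). Tie1 was at -0.099, -0.061, -0.34 and 0.075 in the VEGF-labelled arrays, against 0.064, 0.11, -0.22 and 0.061 in the control arrays. The same 2 arrays were lowest, and the difference was -0.11 with an SE of 0.097 (limma, adjusted p = 0.732). Pdgfb, the ligand by which endothelium attracts pericytes, was at 0.11, -0.086, -0.18 and 0.0019 in the VEGF-labelled arrays, against 0.072, 0.14, -0.12 and -0.0019 in the control arrays, a difference of -0.059 (limma, adjusted p = 0.827). Dll4, the Notch ligand of tip cells, had the narrowest range, at 0.013, 0.041, -0.076 and -0.027 in the VEGF-labelled arrays, against 0.060, 0.063, -0.022 and -0.013 in the control arrays. Its difference was -0.034 with a 95% confidence interval between -0.12 and 0.055 (limma, adjusted p = 0.805), and signal over background is unknown, so a narrow range may also be that of a dim probe set.

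The 25 measured genes of a pan-endothelial list of 26, which holds none of the 10 genes, had a mean of 0.021, 0.026, -0.17 and 0.040 in VEGF 1 to VEGF 4, against 0.033, 0.11, -0.12 and 0.023 in control 1 to control 4. In 18 of the 25, VEGF 3 and control 3 were the lowest arrays, as in 4 of the 10 genes, where 5.62% of all genes showed this. The pattern of these arrays was named after the values were seen, so these counts are descriptions with no test. Of the 25, 7 were higher and 18 lower in the VEGF-labelled arrays, with a median difference of -0.020, and 0 passed. Kdr, the main signalling receptor for VEGF-A, differed by -0.016, Flt1, its decoy receptor, by 0.020, the endothelial cadherin Cdh5 by -0.064, the adhesion molecule Pecam1 by 0.015 and the tight junction gene Cldn5 by -0.24 (limma, lowest adjusted p = 0.526). The signs of Kdr, Flt1, Cdh5 and Pecam1 depended on the setting. Pericyte and smooth muscle genes, 16 of 16 measured, had their lowest means in the same arrays, -0.17 in VEGF 3 and -0.11 in control 3, although these were the 2 lowest arrays in only 7 of the 16. Pdgfrb, the pericyte receptor for PDGF-B, differed by -0.10 (limma, adjusted p = 0.804). In whole tissue, fewer cells of a type and less RNA per cell cannot be told apart.

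Set against the endothelial list mean of the same array, Esm1 was at 0.15, 0.29, 0.33 and -0.077 in VEGF 1 to VEGF 4, against -0.19, -0.10, 0.025 and -0.033 in control 1 to control 4. Angpt2 was at 0.23, 0.32, 0.24 and -0.21 in the VEGF-labelled arrays on this scale, against -0.16, -0.12, -0.0076 and -0.015 in the control arrays. On this scale VEGF 3, low in vascular genes, was the highest array for Esm1 and level with VEGF 1 for Angpt2, while VEGF 4 lay among the control arrays for Esm1 and below them for Angpt2. Subtracting the low list means, -0.17 in VEGF 3 and -0.12 in control 3, raises any gene in those arrays by that amount. Control 3 likewise became the highest control array for Esm1 and Angpt2. With the list mean as a covariate the differences were 0.22 for Esm1, 0.13 for Kcne3, 0.17 for Apln and 0.20 for Angpt2, with adjusted p between 0.297 and 0.726 in limma (0% of all genes passed). For Aplnr and Tie1 this fit gave -0.058 and -0.059, and the SE shrank to 0.063 for Aplnr and 0.044 for Tie1.

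**Figure D2:**
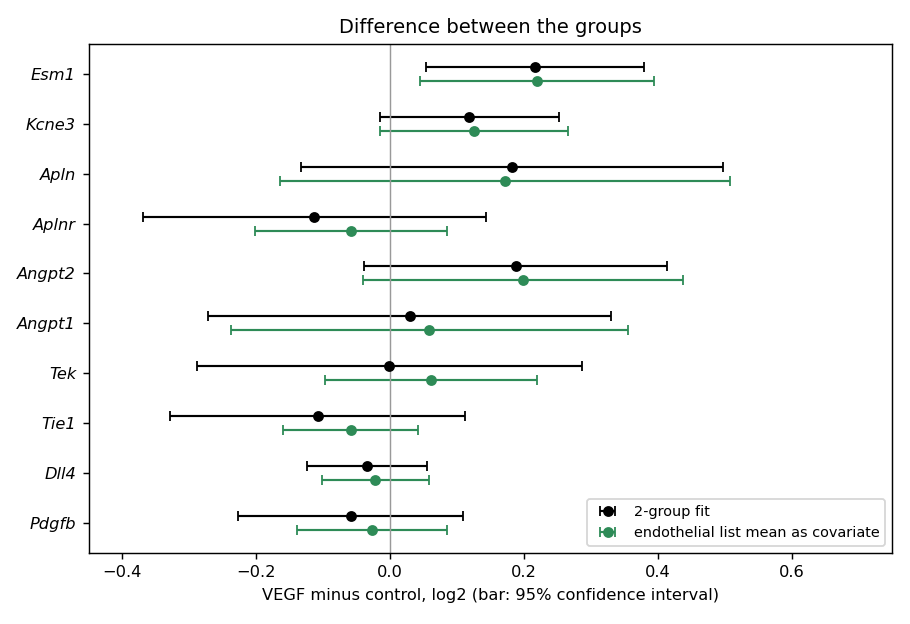
Difference of each gene, VEGF-labelled minus control, on the log2 scale (x axis), with its 95% confidence interval, in the fit of the 2 groups (black) and with the endothelial list mean of each array as a covariate (green). The interval of Esm1 lies above 0 in both fits and those of the other 9 genes include 0. The intervals are not adjusted for the number of genes. Of all 19938 genes, 12.5% had an interval without 0 in the fit of the 2 groups, and 2500 genes had one with the covariate. The intervals of Tek, Tie1, Aplnr and Pdgfb narrow with the covariate.

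Of the arrays left out in turn, VEGF 4 moved the differences of Esm1, Kcne3, Apln and Angpt2 most. Without VEGF 4 the difference was 0.28 for Esm1 (limma, adjusted p = 0.111), 0.34 for Apln (adjusted p = 0.111), 0.28 for Angpt2 (adjusted p = 0.138) and 0.17 for Kcne3 (adjusted p = 0.183). In that fit 10 genes passed over all genes (0.0502%), and 0 of the 10 described here were among them. Values of VEGF 1, VEGF 2 and VEGF 3 all above the highest control value occurred in 4.42% of all genes. That pattern was looked for after the values were seen and has no test. Nothing in the labels sets VEGF 4 apart.

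**Figure D3:**
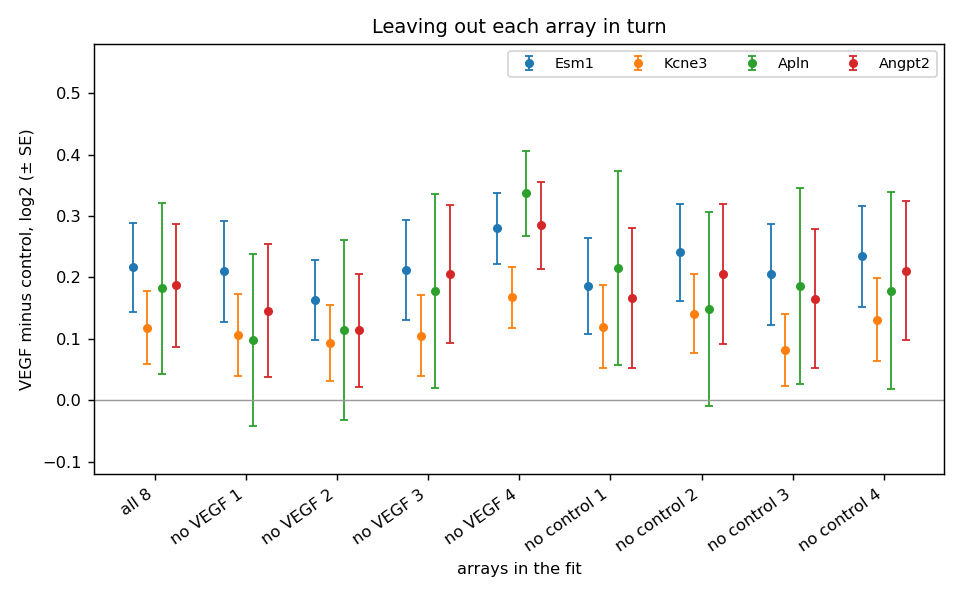
Difference of Esm1, Kcne3, Apln and Angpt2, VEGF-labelled minus control, on the log2 scale (y axis, ± SE) with all 8 arrays and with each array left out in turn (x axis). Every difference shown is above 0, and all 4 are largest without VEGF 4.

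Markers of other tissue and cells varied over the same arrays. Their lists were chosen with earlier results of these data known, so counts of higher genes are descriptions with no test. Of all genes, 43.3% were higher. A list of thalamic and diencephalic genes, 10 of 10 measured, had all 10 members higher, and its mean was 0.72, 0.63, 0.080 and -0.24 in VEGF 1 to VEGF 4, against -0.30, 0.22, -0.20 and -0.29 in control 1 to control 4. With that mean as a covariate, an alternative chosen after seeing the data, the differences were 0.11 for Esm1, 0.044 for Kcne3, 0.014 for Angpt2 and -0.019 for Apln (limma, adjusted p between 0.552 and 0.975). Without VEGF 1, VEGF 2 and control 2, the arrays highest in this list, they were 0.15 for Esm1, 0.086 for Kcne3, 0.033 for Angpt2 and -0.078 for Apln. Red cell genes, of which 11 of 18 were measured and 10 of them were higher, had a mean of 0.62, 0.043, 0.26 and -0.016 in the VEGF-labelled arrays, against -0.14, -0.0022, -0.070 and -0.019 in the control arrays. With the red cell mean as a covariate the differences were 0.17 for Esm1, 0.071 for Kcne3, 0.090 for Angpt2 and 0.0064 for Apln. Meningeal genes, 11 of 11 measured with 6 higher, had a mean of -0.47 in VEGF 3 and -0.25 in control 3 and between -0.014 and 0.15 elsewhere, and with their mean as a covariate Esm1 differed by 0.22 and Apln by 0.18. Genes of cortical identity, the labelled tissue, of which 10 of 12 were measured with 4 higher and 6 lower, had a mean of -0.25, -0.31, 0.079 and 0.085 in VEGF 1 to VEGF 4, against 0.011, -0.078, 0.042 and 0.079 in control 1 to control 4. VEGF 1 and VEGF 2, highest in the thalamic list, were thus lowest in this one. Bcl11b, a transcription factor of deep-layer neurons, lay entirely below control with a difference of -0.48, and Pax6, of radial glia, entirely above it with 0.23 (limma, adjusted p = 0.243 and 0.251). Microglia and macrophage genes, 14 of 14 measured with 10 higher and 4 lower, had a mean of -0.012, -0.014, 0.015 and 0.14 in the VEGF-labelled arrays, against -0.074, 0.060, -0.012 and -0.14 in the control arrays. Of these the lysozyme gene Lyz2 lay entirely above control and the purinergic receptor P2ry12 entirely below it, with differences of 0.44 and -0.28 (limma, adjusted p = 0.243 and 0.265). The thalamic mean itself was 0.30 in the VEGF-labelled and -0.14 in the control arrays, and the red cell mean 0.23 and -0.057. In the fits with these means, the content of such tissue or cells and the VEGF label cannot be told apart. The part of any of these lists in the differences of the 10 genes was not tested.

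**Figure D4:**
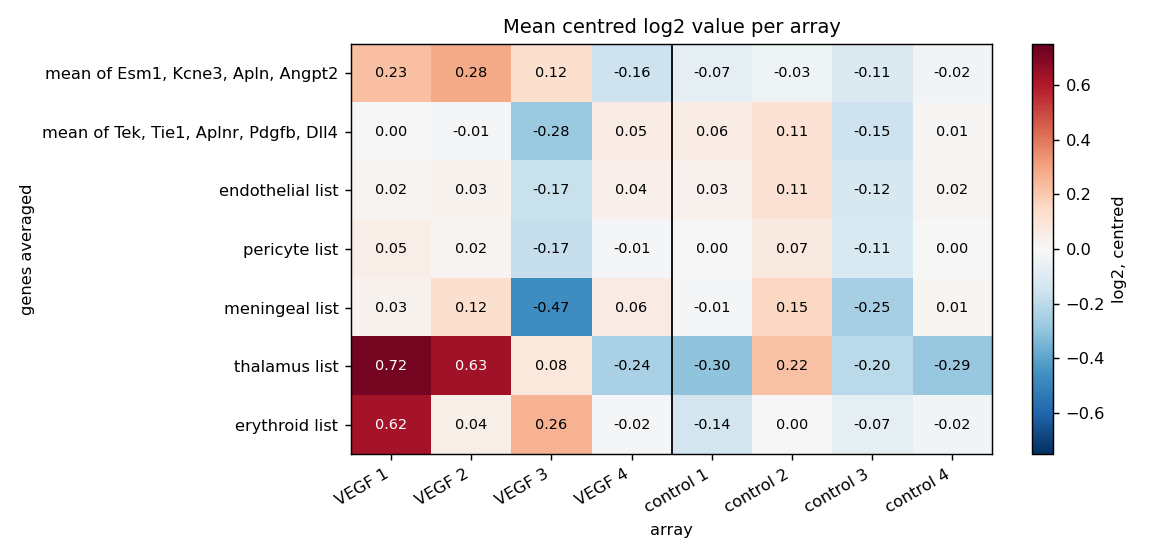
Mean centred log2 value (colour and printed number) of groups of genes (rows) in each array (columns, 4 VEGF-labelled left of the line, 4 control right of it). The row of Esm1, Kcne3, Apln and Angpt2, grouped after their values were seen, is above 0 in VEGF 1, VEGF 2 and VEGF 3 as the thalamus row is, which is above 0 in control 2 too. The row of Tek, Tie1, Aplnr, Pdgfb and Dll4, likewise grouped after their values were seen, is lowest in VEGF 3 and control 3. The endothelial, pericyte and meningeal rows are lowest in the same arrays. Dll4 itself was lowest in VEGF 3 and VEGF 4.

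Other genes of these pathways gave no common direction. Of 22 further tip cell genes, all measured, 9 were higher and 13 lower, with a median of -0.017 and 0 past the test. Rgcc, a cell cycle regulator of endothelium, differed by -0.23, opposite in sign to Esm1, the co-receptor Nrp1 by -0.11, the chemokine receptor Cxcr4 by -0.096 and the actin-bundling protein Fscn1 by -0.047 (limma, lowest adjusted p = 0.264). Of 12 genes of Notch signalling between tip and stalk, 5 were higher and 7 lower, with a median of -0.011 and 0 past the test. Its repressor genes Hey2 and Hes1 lay entirely above control, which 2.13% of all genes did. Hey2 was at 0.0078, 0.035, 0.14 and 0.062 in the VEGF-labelled arrays, against -0.16, -0.0078, -0.29 and -0.10 in the control arrays (limma, difference 0.20, adjusted p = 0.262). Hes1, which radial glia express strongly, differed by 0.28 (adjusted p = 0.274), the related repressor Heyl, whose groups overlapped, by -0.088 (adjusted p = 0.590), and the arterial ligand Efnb2 by -0.20 (adjusted p = 0.376). Of 7 further genes around Tie receptors, 4 were higher and 3 lower, and the adaptor Dok2 and the transcription factor Foxo1 differed by -0.088 and -0.10. Of 3 further genes of apelin signalling, the second ligand Apela was at -0.11, 0.046, -0.88 and 0.16 in the VEGF-labelled arrays, against 0.20, -0.077, 0.47 and -0.046 in the control arrays, with VEGF 3 far below the rest (limma, difference -0.33, adjusted p = 0.60). Hypoxia response genes, 16 of 16 measured, had 9 higher and 7 lower and a median of 0.014, and the stress-responsive Ndrg1 and Ddit4 differed by -0.58 and -0.19 (limma, adjusted p = 0.272 and 0.310). Ldha, which encodes a lactate dehydrogenase subunit, went the other way with a difference of 0.13 and lay entirely above control (adjusted p = 0.407).

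The genes whose values over the 8 arrays were most like those of Esm1 by Pearson's r were B3glct, a glucosyltransferase of the endoplasmic reticulum (0.977), Rnf213, a large ubiquitin ligase (0.970), Gbe1, the glycogen branching enzyme (0.960), Hapln1, a link protein of hyaluronan matrix (0.959), and the forkhead gene Foxn2 (0.956). They were picked as the closest of all genes, so r is a description with no test. Gbe1, for one, was at 0.23, 0.35, 0.16 and -0.0073 in VEGF 1 to VEGF 4, against -0.096, 0.0073, -0.043 and -0.083 in control 1 to control 4. In all 5 genes VEGF 1, VEGF 2 and VEGF 3 were the highest arrays, as in Esm1, which follows largely from how the genes were picked.

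Promoter windows from RefSeq on build GRCm38.p6 were held for 6 of the 10 genes, Esm1, Apln, Tek, Tie1, Dll4 and Kcne3, the last with 2 start sites. They are shown for the genes that were high together in VEGF 1, VEGF 2 and VEGF 3 and for the Tie receptors, which were not. Each line holds the 250 bases before a transcript start, 5′ to 3′ on the gene's strand, with capitals for 5 motifs searched on both strands: ACGTG and GCGTG (cores of hypoxia response elements), TGTTTAC (forkhead), TGGGAA (RBPJ) and AGGAAG (ETS family).
Esm1, chr13:113209409-113209658, plus strand: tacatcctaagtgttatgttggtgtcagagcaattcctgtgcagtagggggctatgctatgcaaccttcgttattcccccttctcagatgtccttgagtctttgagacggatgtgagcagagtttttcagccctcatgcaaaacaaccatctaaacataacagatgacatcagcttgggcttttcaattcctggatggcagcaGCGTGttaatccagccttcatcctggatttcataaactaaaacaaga
Kcne3, upstream start, chr7:100176420-100176669, plus strand: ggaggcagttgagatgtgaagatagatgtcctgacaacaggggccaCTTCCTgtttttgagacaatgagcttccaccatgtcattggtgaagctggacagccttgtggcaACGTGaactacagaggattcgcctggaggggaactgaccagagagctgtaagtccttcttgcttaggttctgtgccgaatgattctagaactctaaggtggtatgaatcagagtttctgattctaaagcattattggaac
Kcne3, downstream start, chr7:100178433-100178682, plus strand: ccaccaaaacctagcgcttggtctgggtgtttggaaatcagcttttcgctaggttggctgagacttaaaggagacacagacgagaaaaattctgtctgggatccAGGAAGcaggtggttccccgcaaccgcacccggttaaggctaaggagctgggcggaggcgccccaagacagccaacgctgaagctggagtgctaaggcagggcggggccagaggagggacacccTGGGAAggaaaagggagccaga
Apln, chrX:48034854-48035103, minus strand: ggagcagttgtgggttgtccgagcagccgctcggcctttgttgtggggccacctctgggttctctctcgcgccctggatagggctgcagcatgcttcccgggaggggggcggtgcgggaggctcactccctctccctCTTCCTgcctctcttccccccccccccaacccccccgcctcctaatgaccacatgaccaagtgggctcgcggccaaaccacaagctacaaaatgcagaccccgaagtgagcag
Tek, chr4:94739039-94739288, plus strand: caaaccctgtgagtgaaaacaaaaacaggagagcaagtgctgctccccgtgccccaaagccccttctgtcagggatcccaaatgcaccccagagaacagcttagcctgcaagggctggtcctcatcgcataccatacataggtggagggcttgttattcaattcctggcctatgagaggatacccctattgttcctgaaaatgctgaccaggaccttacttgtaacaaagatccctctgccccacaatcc
Tie1, chr4:118489850-118490099, minus strand: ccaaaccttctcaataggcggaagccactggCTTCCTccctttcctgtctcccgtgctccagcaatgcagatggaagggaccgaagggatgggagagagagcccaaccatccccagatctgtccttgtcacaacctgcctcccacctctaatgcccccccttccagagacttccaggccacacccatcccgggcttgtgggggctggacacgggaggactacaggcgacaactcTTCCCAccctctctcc

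In the 250 bases before the start and the 50 after it, Esm1 held GCGTG with its first base 47 bases before the start, a motif present in 32.4% of all RefSeq windows of this length. Apln held AGGAAG on the opposite strand, a motif in 35.4% of windows. The upstream start of Kcne3 held ACGTG (in 19.6% of windows) and AGGAAG, and its downstream start held the ETS motif as well, besides GCGTG and the RBPJ motif (in 25.6% of windows). Tie1 held the RBPJ motif once and the ETS motif 2 times, Dll4 held GCGTG, and Tek held none of the 5. TGTTTAC, present in 3.65% of windows, was in none of the 7 windows of these genes. No motif was thus shared by Esm1, Apln and both starts of Kcne3, and a match is a run of letters, not a shown binding site.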

How the data were processed

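RNA of brain cortex was prepared with a Qiagen RNeasy kit and 120 ng of it was amplified and biotin-labelled for Affymetrix arrays, per the labels' protocols. Affymetrix Expression Console and genome build mm8 were used per the submitters' processing notes, and no source used here describes the background correction or summarisation. The authors deposited values for 28853 probe sets that are read as log2, the base being unstated, and centred per probe set. A filter on dim probe sets could therefore not be made.

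The 21789 probe sets with 1 symbol in the platform annotation were averaged per gene, and symbols were updated through Entrez identifiers. Differences are VEGF minus control from limma 3.58.1 in R 4.3.3, with no covariates, Benjamini-Hochberg adjustment over 19938 genes and a threshold of 0.05. The fit was tried on simulated data with independent noise in each gene and array. Such data lack the patterns that these arrays share over many genes, so the trial does not cover them. Named genes were the 10 members, up to 4 of smallest p from each of 12 lists, 7 fixed vascular genes and the 5 most like Esm1. Adm and Slc2a1 are in 2 lists. The members and lists were chosen with earlier results of these data known. The precision is limited by the number of arrays. Alternatives were the settings given in the closing section, 4 of which were added after seeing the data.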

Additional observations from a re-analysis of the deposited data

Results flagged for a closer look

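Among the 10 genes and the 7 vascular genes named beside them, 34 groups of 4 arrays were examined for an array far from the other 3, and 3 were found; chance alone marks about 1 group in 20. Tie1 in control 3, at -0.224, lay far below the other control arrays. Pdgfrb in VEGF 3, at -0.442, lay far below the other VEGF-labelled arrays. Flt1 in control 4, at 0.0787, lay far above the other control arrays.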

How the results depend on the processing

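Over 22 alternatives, none of the 10 genes passed an adjusted p of 0.05. Esm1, Kcne3 and Angpt2 kept a difference above 0 and Aplnr, Tie1, Dll4 and Pdgfb one below 0 in all 22, with an adjusted p between 0.111 and 0.644 for Esm1. Leaving out each array in turn gave 0.16 to 0.28 for Esm1, 0.081 to 0.17 for Kcne3, 0.098 to 0.34 for Apln, 0.11 to 0.28 for Angpt2, -0.20 to -0.021 for Aplnr, -0.18 to -0.031 for Tie1, -0.11 to -0.011 for Pdgfb and -0.052 to -0.013 for Dll4, the value nearest 0 in the last 4 being that without VEGF 3. It gave -0.074 to 0.13 for Angpt1, -0.085 to 0.13 for Tek, -0.089 to 0.078 for Kdr, -0.0062 to 0.047 for Flt1, -0.12 to 0.018 for Cdh5, -0.032 to 0.062 for Pecam1 and -0.17 to 0.014 for Pdgfrb. The sign turned in these settings, and the cause was not tested. With the mean of the thalamus list as covariate, Apln was -0.019, Angpt1 -0.094, Vegfa -0.011 and Pecam1 -0.059. Without VEGF 1, VEGF 2 and control 2 Apln was -0.078, Angpt1 -0.26, Flt1 -0.025 and Pecam1 -0.044. Array weights gave Angpt1 -0.090, Flt1 -0.0097 and Pecam1 -0.017. Quantile normalization gave Angpt1 -0.0023, Tek 0.060 and Kdr 0.029, and arrays centred on their medians Tek 0.0042. Tek and Kdr were 0.061 and 0.039 with the endothelial list mean as a covariate, 0.064 and 0.031 with the erythroid one, where Pecam1 was -0.0049, 0.048 and 0.025 with the sex index, 0.038 and 0.017 with the meningeal list mean, and 0.062 and 0.0054 without VEGF 3 and control 3. Where the sign held, quantile normalization gave 0.19 for Esm1, 0.12 for Kcne3, 0.11 for Apln and 0.15 for Angpt2. It gave -0.039 for Aplnr, -0.044 for Tie1, -0.024 for Pdgfb and -0.029 for Dll4. Array weights gave 0.15 for Esm1, 0.072 for Kcne3, 0.060 for Apln and 0.091 for Angpt2. For Aplnr, Tie1, Pdgfb and Dll4 they gave -0.025, -0.084, -0.025 and -0.029. Genes past the threshold numbered 0 throughout except 10 without VEGF 4 and 1 without VEGF 1, VEGF 2 and control 2, so that leaving out each array gave 0 to 10. Genes at an unadjusted p under 0.05 numbered 2484, and 1526 to 2881 leaving out each array, with 1526 without control 1 and 1627 without control 4. By the methods' t-test 2114 genes were under its plain threshold, and 0 once adjusted by Benjamini-Hochberg. Same-numbered arrays of the 2 groups correlated between -0.13 and 0.454 in their deviations from the group means. The same number was the closest match for VEGF 3 and VEGF 4 and not for VEGF 1 and VEGF 2. Whether the numbers pair the arrays is thus not known. With the replicate block Esm1 had a difference of 0.22 (limma, adjusted p = 0.247) and 0 genes passed. The block changed the SE from 0.13 to 0.065 for Tek and from 0.097 to 0.047 for Tie1. For Esm1 the SE went from 0.072 to 0.067, and for Kcne3 from 0.059 to 0.060. Signal over background is unknown, so precision is set by the number of arrays.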
